A study of Homo sapiens with 41 samples.

Results

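The 47 genes described here make up the folding and quality-control machinery of the endoplasmic reticulum (ER): 17 chaperones and glucosyltransferases that help new proteins fold, 11 disulfide isomerases and oxidases, 3 proteins of collagen folding, and 16 proteins of ER-associated degradation (ERAD). They were chosen by name and found by matching the Ensembl identifiers of the count files to gene symbols, and all 47 of 47 were found among the 58735 genes counted. RNA was sequenced from LX-2, an immortalised line of human hepatic stellate cells, the cells that lay down collagen in liver fibrosis, and from HMLE, an immortalised line of human mammary epithelial cells. The series addresses the role of the transcription factor ATF4 in liver fibrosis; its 9 ChIP-seq samples are not analysed here. Every group carries an shRNA: shATF4, which targets ATF4, or shCtrl, a control. LX-2 cells of each hairpin received DMSO, TGFbeta, thapsigargin (Tg) or the condition labelled AA_Dep, a name that the labels do not spell out. HMLE cells of each hairpin had DMSO, Tg and AA_Dep too, while Twist_OE (Twist overexpressed) took the place of TGFbeta. This gave 16 groups of 2 samples. The labels give no dose, duration, passage or clone and do not say whether the samples of a group were separate cultures, so p-values measure the spread between these samples, which may be technical.

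Proteins that enter the ER are bound by the chaperone HSPA5 (BiP), glycosylated and handled by the lectins calnexin and calreticulin, and cross-linked by disulfide isomerases that the ERO1 oxidases recharge. Proteins that fail to fold are trimmed by EDEM mannosidases, handed to the SEL1L and SYVN1 (HRD1) membrane complex, ubiquitinated and pulled out to the proteasome by the ATPase VCP. When unfolded proteins accumulate, the sensors IRE1, ATF6 and PERK switch on the unfolded protein response. ATF6 and the IRE1 product XBP1 act on ER stress response elements of chaperone genes, and PERK acts through translation of ATF4. Thapsigargin blocks the pump that fills the ER calcium store and is a standard trigger of this response.

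The promoters of several of these genes are known for such elements, and exact matches are shown for genes whose thapsigargin responses are described below, HERPUD1 and HSPA5 among them. RefSeq windows of 300 bases (250 before to 50 after an annotated start, GRCh38.p14) were found for 42 of the 47 genes; PDIA3, DERL3, DERL1, FKBP10 and DNAJC1 had none. The 4 motifs below were searched on both strands: the ER stress response element ERSE (CCAAT, any 9 bases, CCACG), ERSE-II (ATTGG, any 1 base, CCACG), the unfolded protein response element UPRE (TGACGTGG) and the amino acid response type element CARE (TGATGNAA). In the lines below, capitals mark the letters that the motif fixes, and each sequence runs 5′ to 3′ on the strand of the gene.
HSPA5, ERSE, chr9:125241379-125241421, minus strand: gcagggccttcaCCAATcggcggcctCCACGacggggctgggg
CRELD2, ERSE in reverse, chr22:49918542-49918584, plus strand: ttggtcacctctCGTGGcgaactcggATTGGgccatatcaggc
PDIA6, ERSE, chr2:10812841-10812883, minus strand: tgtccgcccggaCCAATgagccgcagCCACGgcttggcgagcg
HSP90B1, ERSE at 2 places, the second in reverse, chr12:103930204-103930351, plus strand: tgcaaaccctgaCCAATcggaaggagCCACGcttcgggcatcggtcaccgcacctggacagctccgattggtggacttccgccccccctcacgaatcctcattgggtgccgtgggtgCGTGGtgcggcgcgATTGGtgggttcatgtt
SDF2L1, ERSE-II in reverse, chr22:21642102-21642136, plus strand: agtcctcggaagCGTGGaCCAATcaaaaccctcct
HYOU1, ERSE-II in reverse at 2 places, the first overlapped by a UPRE, chr11:119057262-119057405, minus strand: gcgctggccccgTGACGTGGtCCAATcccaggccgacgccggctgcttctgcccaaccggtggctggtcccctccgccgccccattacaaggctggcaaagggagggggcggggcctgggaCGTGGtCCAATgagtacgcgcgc
HERPUD1, a CARE in reverse and then an ERSE-II, chr16:56931954-56932047, plus strand: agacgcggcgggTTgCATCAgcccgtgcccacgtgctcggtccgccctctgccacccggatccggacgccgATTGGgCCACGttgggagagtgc

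ERSE was found for 7 of the genes with a window (HSPA5, HSP90B1, CALR, CANX, CRELD2, PDIA6 and ERO1B) and in 27 of all 35116 RefSeq windows (0.0769%). ERSE-II was found for HYOU1, SDF2L1 and HERPUD1 and in 19 of all windows (0.0541%). UPRE was found for 6 genes, HYOU1, DNAJC10, TXNDC5, TXNDC11, UBE2J1 and VCP, and in 0.729% of all windows. CARE was found for HERPUD1 alone of the genes with a window, and in 3.62% of all windows. HERPUD1, a membrane protein that supports the SYVN1 complex, was thus the 1 gene of the group with both an ERSE-II and a CARE in its window. A match of letters is a description and not evidence of binding.

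**Figure D1:**
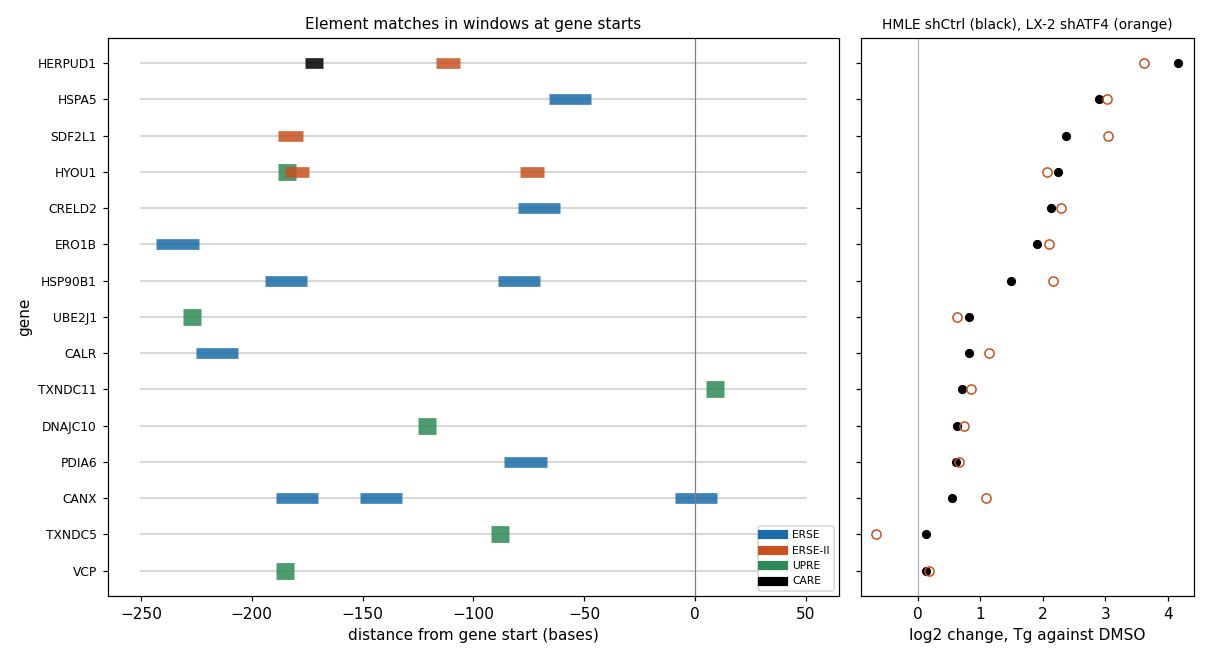
Left, positions of the 4 motifs in bases from the gene start, 1 row per gene, ordered by the thapsigargin response in HMLE shCtrl; the same CANX match lies in windows of 3 annotated starts and is drawn at 3 distances. Right, the fitted log2 change with thapsigargin for the same genes in HMLE shCtrl (black) and LX-2 shATF4 (orange), largest in both for HERPUD1 at 4.16 and 3.62.

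Total counts per library were 14551191 to 18776430 (LX-2) and 15956909 to 23243132 (HMLE). Both samples labelled HMLE shATF4 AA_Dep held identical values and were counted as 1 library, so that 31 libraries were used. LX-2 shCtrl Tg replicate 2 stood apart: it had counts for 15840 genes and correlated with its replicate at 0.923 (Pearson, log2 of CPM plus 1), against 0.995 to 0.998 in the other LX-2 pairs. LX-2 values are therefore from the 15 other LX-2 libraries, with shCtrl Tg as 1 library assumed to vary like the rest, and the counts with all 16 are given beside them; the biological coefficient of variation was 9.21% with 15, 29.5% with 16 and 5.24% in HMLE. In each line and condition all shATF4 libraries had less ATF4, the hairpin's target, than both shCtrl libraries, for example 211 and 232 against 123 and 110.5 CPM (counts scaled to library size, TMM-normalised) in LX-2 DMSO and 460.0 and 483 against 137 and 129 in HMLE DMSO. Markers of the lines were checked against the labels. KRT5, a basal epithelial keratin, was at most 0.0537 CPM in any LX-2 library and 3213 and 3253 in HMLE shCtrl DMSO, while the collagen gene COL1A1 was 4698 and 4933 in LX-2 shCtrl DMSO and 12.5 and 14.0 there. The 10 basal epithelial markers summed to 118 to 947 CPM in LX-2, most of it KRT18 (107 to 919), and to 815 to 13747 in HMLE. In the discordant library the sum was 933, against 120 in its replicate. The 4 leukocyte markers summed to at most 3.53 CPM in any library, and of the 5 hepatocyte markers ALB, TTR and APOB were at 0.179 CPM or less and APOA1 at 1.02 or less. SERPINA1 carried the rest of that list, at 3.99 to 11.2 CPM in LX-2 and 18.8 to 39.9 in HMLE.

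Thapsigargin raised most of the 47 genes in both lines and with both hairpins. By class median the change was largest for chaperones. In HMLE shCtrl cells 38 of 46 tested genes rose and 1 fell, with a median log2 change of 0.70, against 18.6% of all 17940 genes higher, 18.2% lower and a median of 0.00. In HMLE shATF4 cells 36 rose and 1 fell (median 0.63; all genes 16.8% higher and 15.7% lower). In LX-2 shATF4 cells 37 of 47 rose and 6 fell (median 0.74; all genes 17.8% higher and 19.2% lower), and in LX-2 shCtrl cells 37 rose and 1 fell (median 1.12; 20.2% and 20.4%, 40.5% in either direction). With all 16 LX-2 libraries, 18 rose and 1 fell in shATF4 cells (all genes 3.49% and 4.37%) and 28 rose and 1 fell in shCtrl cells (19.3% and 15.1%, 34.4% in either direction). The 4 comparisons share no library. In all 4 of them 32 of 46 genes rose, against 664 of 16173 genes tested in all (4.11%), and with all 16 LX-2 libraries 17 did. With the discordant library in place of its replicate, 30 of the 47 genes rose and 12 fell in LX-2 shCtrl, and 26 of the 38 calls were kept in direction. Of the 32 genes 23 then rose in LX-2 shCtrl and 6 fell there (CANX, PDIA6, SEL1L, EDEM1, EDEM3 and UBE2J1). All 47 genes passed the filter on low counts in LX-2 and 46 in HMLE, where DERL3, a derlin of ERAD, had at most 1 count per library and was not tested.

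**Figure D2:**
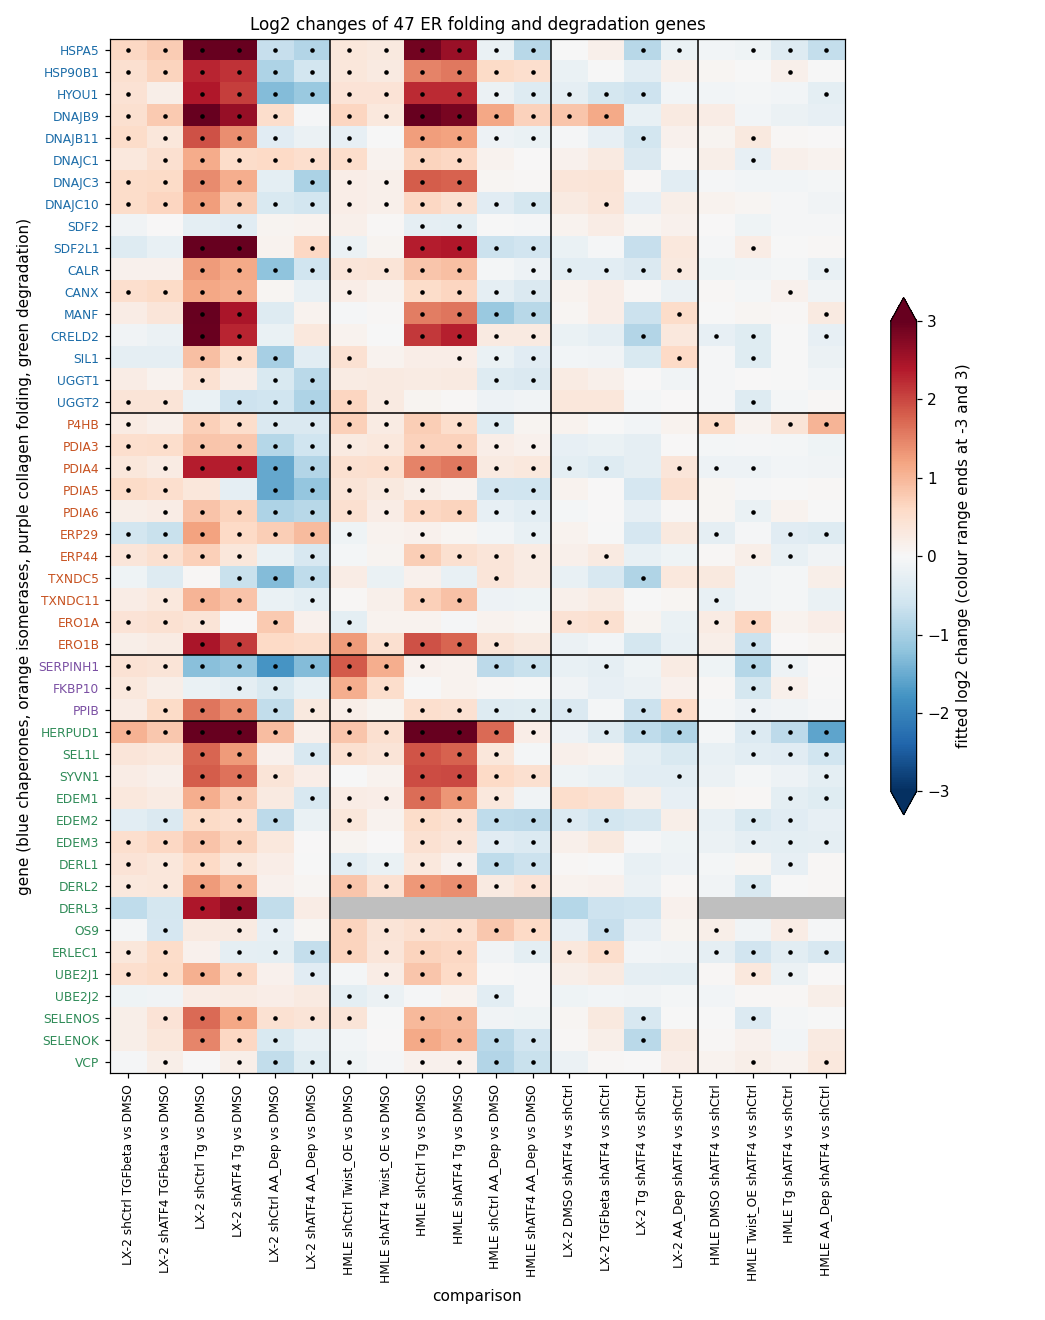
Fitted log2 changes of the 47 genes (rows, coloured by role) in 20 comparisons (columns): conditions against DMSO, then shATF4 against shCtrl; dots mark an adjusted p under 0.05, grey was not tested, and colours end at -3 and 3. The thapsigargin columns are red for most rows, with 32 of 46 genes higher in all 4 when 15 LX-2 libraries are used, while AA_Dep columns are mixed.

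HSPA5, the main ER chaperone of the HSP70 family, stood at 1315 and 1320.3 CPM in HMLE shCtrl DMSO and at 9953 and 9416 with thapsigargin. The shATF4 cells went from 1308 and 1231 to 7488 and 7383. In LX-2, HSPA5 went from 733 and 749 to 10691 in shCtrl cells (11404 in the discordant library) and from 722 and 738 to 5762 and 6039 in shATF4 cells. No thapsigargin library overlapped a DMSO library of its line and hairpin. The rises were 2.89 on the log2 scale in HMLE shCtrl (SE 0.05, adjusted p = 5.1e-18), 2.59 in HMLE shATF4, 3.85 in LX-2 shCtrl and 3.03 in LX-2 shATF4.

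HSPA5 works with DnaJ co-chaperones, which deliver clients and start its ATP cycle, and with nucleotide exchange factors. DNAJB9 (ERdj4) stood at 15.8 and 15.2 CPM in HMLE shCtrl DMSO and at 139 and 156 with thapsigargin, a rise of 3.26 (SE 0.08, adjusted p = 2.6e-16). In LX-2 shATF4 it went from 20.6 and 21.7 to 126 and 133, and in LX-2 shCtrl from 11.4 and 12.8 to 153, with 30.02 in the discordant library. DNAJB9 groups did not overlap in either line. Of the other DnaJ genes, DNAJB11, DNAJC3, DNAJC10 and DNAJC1 rose in all 4 comparisons, DNAJC3 (p58IPK) by 1.81 in HMLE shCtrl and 1.09 in LX-2 shATF4. HYOU1 (GRP170), an exchange factor, rose by 2.24 in HMLE shCtrl, from 239 and 241 to 1187 and 1065 CPM, and by 2.07 in LX-2 shATF4, from 177 and 169.7 to 736 and 704. SIL1, the other exchange factor, rose by 0.53 in LX-2 shATF4, by 0.90 in LX-2 shCtrl and by 0.21 in HMLE shATF4, and had a log2 change of 0.19 in HMLE shCtrl that did not pass.

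SDF2L1, which partners ER DnaJ proteins, rose by 2.36 in HMLE shCtrl, from 60.0 and 59.9 to 302 and 309 CPM, and by 3.04 in LX-2 shATF4, from 36.2 and 30.1 to 303 and 238. Its paralog SDF2 went the other way: it fell in HMLE shCtrl (by 0.26), HMLE shATF4 (by 0.30) and LX-2 shATF4 (by 0.34), and had a change of -0.29 in LX-2 shCtrl that did not pass. The secreted stress factors MANF and CRELD2 rose in all 4, in HMLE shCtrl from 149 and 149.5 to 436 and 426 CPM for MANF and from 51.6 and 52.7 to 222 and 228 for CRELD2. HSP90B1 (GRP94), the ER member of the HSP90 family, went from 1044 and 1001 to 2876 and 2833 CPM in HMLE shCtrl and from 633 and 654 to 2722 and 2983 in LX-2 shATF4. In the discordant library it reached 15519, against 3607 in its replicate. The lectin chaperones moved less: CALR rose by 0.82 and CANX by 0.55 in HMLE shCtrl, and by 1.15 and 1.09 in LX-2 shATF4. The folding sensors UGGT1 and UGGT2, which reglucosylate misfolded glycoproteins, did not pass in HMLE, while UGGT2 fell by 0.62 in LX-2 shATF4. UGGT1 rose in LX-2 shCtrl with 15 LX-2 libraries. Its log2 change there was -0.062 with the discordant library in place of its replicate. As a class 13 of 17 chaperones rose and 1 fell in HMLE shCtrl (median 1.25), 14 rose and 1 fell in HMLE shATF4 (1.21), 14 rose and 2 fell in LX-2 shATF4 (1.15), and 15 rose and 0 fell in LX-2 shCtrl (1.41).

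Among disulfide isomerases PDIA4 and ERO1B rose the most. Of the 11 isomerases and oxidases 9 rose in HMLE shCtrl (median 0.69), 7 in HMLE shATF4 (0.53), 8 in LX-2 shATF4 (0.60, with 1 lower) and 9 in LX-2 shCtrl (0.84). PDIA4 (ERp72) went from 324 and 330.3 to 929 and 905 CPM in HMLE shCtrl, a rise of 1.5 (SE 0.05, adjusted p = 2.4e-14), and from 276 and 288 to 1396 and 1472 in LX-2 shATF4, a rise of 2.36 (SE 0.07, adjusted p = 1.6e-12). ERO1B, an oxidase that recharges isomerases, went from 5.71 and 4.88 to 18.5 and 21.1 CPM in HMLE shCtrl and from 3.06 and 3.26 to 13.0 and 13.8 in LX-2 shATF4. Its paralog ERO1A, also known as a hypoxia-responsive gene, did not follow: the log2 change was 0.10 in HMLE shCtrl, -0.03 in HMLE shATF4 and 0.00 in LX-2 shATF4, none of which passed. In LX-2 shCtrl it rose by 0.38 with 15 libraries, and was -0.25 (adjusted p = 0.63) with 16. The abundant isomerases P4HB, PDIA3 and PDIA6 each rose in all 4 comparisons, by 0.53 to 0.85, but with the discordant library in place of its replicate PDIA6 fell by 0.61 in LX-2 shCtrl (adjusted p = 1.7e-05). TXNDC5 fell by 0.66 in LX-2 shATF4 and did not pass in the other 3.

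Among the ERAD genes HERPUD1 had the largest rise of all 47 genes in each of the 4 comparisons: from 54.0 and 58.1 to 967 and 1022 CPM in HMLE shCtrl (4.16, SE 0.06, adjusted p = 4.5e-19), from 55.9 and 52.4 to 577 and 577 in HMLE shATF4 (3.45), from 24.2 and 23.3 to 279 and 298 in LX-2 shATF4 (3.62), and from 26.7 and 27 to 499 in LX-2 shCtrl (4.22; 649 in the discordant library). No HERPUD1 level with thapsigargin overlapped a DMSO level. That order was for 15 LX-2 libraries: with 16, SDF2L1 rose by 6.0 in LX-2 shCtrl and HERPUD1 by 4.54. The ligase SYVN1 and its scaffold SEL1L rose by 1.95 and 1.88 in HMLE shCtrl and by 1.64 and 1.27 in LX-2 shATF4. Of the mannosidase family that marks glycoproteins for disposal, EDEM1 rose by 1.68 in HMLE shCtrl and 0.76 in LX-2 shATF4, and EDEM2 and EDEM3 by 0.36 to 0.66 in HMLE and LX-2 shATF4. DERL2, a derlin of the membrane channel, rose by 1.30 in HMLE shCtrl and 1.0 in LX-2 shATF4. DERL3 was measured in LX-2 only, at 1.5 and 0.752 CPM in shATF4 DMSO and 7.86 and 6.28 with thapsigargin (2.68, SE 0.31, adjusted p = 4.6e-06). The selenoproteins SELENOS and SELENOK, which recruit VCP to the membrane, rose by 0.98 and 1.14 in HMLE shCtrl.

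VCP, the ATPase that pulls ERAD substrates into the cytosol, stood at 713 and 693 CPM in HMLE shCtrl DMSO and at 791 and 734 with thapsigargin, a rise of 0.13 (SE 0.05, adjusted p = 0.039). The E2 enzyme UBE2J2 passed in none of the 4 comparisons, with log2 changes of -0.03 to 0.24, whereas its relative UBE2J1 rose by 0.82 in HMLE shCtrl and 0.62 in LX-2 shATF4. The lectin ERLEC1 rose in HMLE (0.67 in shCtrl) and fell by 0.28 in LX-2 shATF4. As a class 14 of 15 tested ERAD genes rose in HMLE with either hairpin (medians 0.82 in shCtrl and 0.63 in shATF4), 14 of 16 rose and 1 fell in LX-2 shATF4 (0.64), and 12 of 16 rose in LX-2 shCtrl (1.09).

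The 3 collagen folding proteins did not move together. PPIB, a prolyl isomerase of the ER, rose in all 4 comparisons, by 0.51 in HMLE shCtrl and by 1.39 in LX-2 shATF4, where it went from 83.8 and 85.7 to 217 and 224 CPM. SERPINH1 (HSP47), the collagen-specific chaperone, stood at 354 and 356 CPM in LX-2 shATF4 DMSO and 159 and 155 with thapsigargin, a fall by 1.16 on the log2 scale (SE 0.09, adjusted p = 1.1e-07). In LX-2 shCtrl it went from 394 and 445 to 176, with 67.8 in the discordant library. In HMLE shCtrl SERPINH1 went from 166 and 167 to 173 and 188, a log2 change of 0.13 that passed (adjusted p = 0.043), and in HMLE shATF4 the change was 0.10 and did not pass. FKBP10, which acts on procollagen, fell by 0.26 in LX-2 shATF4 and did not pass in the other 3.

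In LX-2 the same thapsigargin libraries were low in stellate markers. The 10 stellate and mesenchymal markers summed to 8392 and 8809 CPM in shCtrl DMSO and 2140.2 with thapsigargin, and to 5865 and 5811 against 2989 and 3084 in shATF4; 9 of 10 fell in shCtrl and 10 of 10 in shATF4. THY1 went from 194 and 224 CPM to 2.24 in shCtrl, and COL1A1 from 4698 and 4933 to 670.3. In HMLE the 10 epithelial markers summed to 8724 and 8677 CPM in shCtrl DMSO and to 13747 and 13529 with thapsigargin. The part of these changes in the results above was not tested. In bulk RNA, fewer cells of a type and less RNA per cell cannot be told apart.

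**Figure D3:**
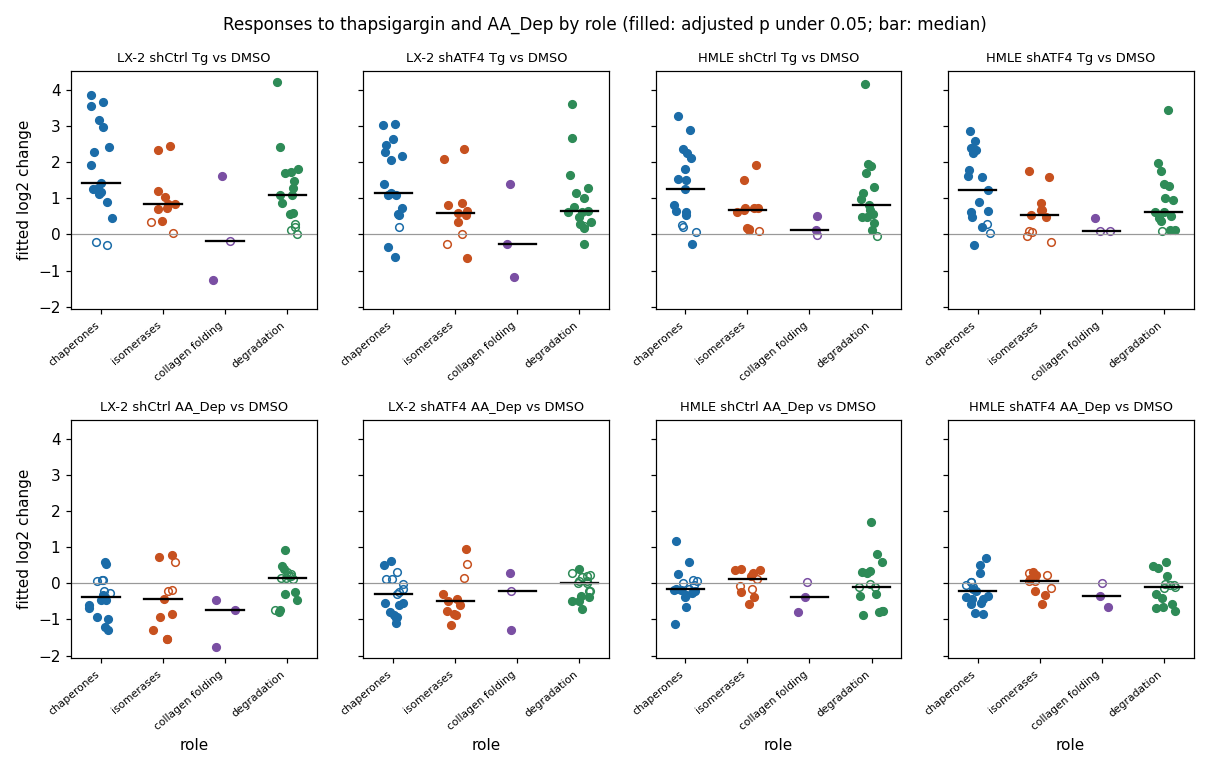
Fitted log2 change of each gene by role, with thapsigargin (top) and AA_Dep (bottom) against DMSO in each line and hairpin; filled points had an adjusted p under 0.05 and bars are medians. Chaperone medians lie between 1.15 and 1.41 with thapsigargin and between -0.39 and -0.16 with AA_Dep.

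The 10 genes with an ERSE or ERSE-II in their window rose in all 4 thapsigargin comparisons. In LX-2 shCtrl 8 of the 10 rose with 16 libraries; with the discordant library in place of its replicate 8 rose, while CANX fell by 0.44 (adjusted p = 0.0047) and PDIA6 by 0.61 (adjusted p = 1.7e-05). With 15 LX-2 libraries their median log2 change was 2.02 in HMLE shCtrl (range 0.55 to 4.16), 1.99 in HMLE shATF4, 2.13 in LX-2 shATF4 and 2.44 in LX-2 shCtrl. Of the 32 genes with a window but neither element, 25 rose and 1 fell in HMLE shCtrl (median 0.65), 23 rose and 1 fell in HMLE shATF4 (0.50), 23 rose and 5 fell in LX-2 shATF4 (0.61), and 23 rose and 1 fell in LX-2 shCtrl (0.96). The ranges overlapped: DNAJB9, with neither element, rose by 3.26 in HMLE shCtrl, and CANX, with an ERSE, rose by 0.55. This is a description, with no test.

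Other genes of the pathway, from wider lists, were counted in the same way. Of 16 regulators of the unfolded protein response 13 rose and 0 fell in HMLE shCtrl (median 1.07) and 13 rose and 2 fell in LX-2 shATF4 (0.66). DDIT3 (CHOP) led both, with 5.17 and 3.45. Of 24 tested other ER folding genes 6 rose and 5 fell in HMLE shCtrl (median 0.10), and of 25 in LX-2 shATF4 7 rose and 9 fell (-0.16). HSPA13, an HSP70 relative, rose by 1.96 and 0.77. Of 25 other ERAD genes 6 rose and 3 fell in HMLE shCtrl (-0.00) and 4 rose and 4 fell in LX-2 shATF4 (0.00).

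The response to thapsigargin differed between the lines for 19 of the 47 genes in shCtrl cells. The log2 change was more positive in LX-2 for 16 and in HMLE for 3, against 12.8% and 14.9% of all 20308 genes. The fit with the discordant library gave 15 and 2 (11.3% and 10.3%). Of the 17 chaperones 12 were among the 16, with a median difference of 0.60 for the class. Among those that passed, MANF differed most in that direction, by 1.60 (SE 0.20, adjusted p = 7e-07), followed by SDF2L1 at 1.17, PPIB at 1.08, ERP29 at 1.05 and HSPA5 at 0.95. ERP29, a thioredoxin-fold protein without isomerase activity, went from 130.3 and 150.4 to 324 CPM in LX-2 shCtrl and from 168 and 160.2 to 175 and 183 in HMLE shCtrl. SERPINH1 differed the other way, by -1.39 (SE 0.13, adjusted p = 2.9e-09), as did EDEM1 at -0.60 and ERLEC1 at -0.56. SERPINH1 fell in LX-2 shCtrl, and its rise in HMLE shCtrl was small. For differences in response here and below, larger and smaller compare signed log2 changes, so a weaker fall counts as larger. LX-2 shCtrl Tg is 1 library here. With the discordant library in its place, 40 genes passed, 21 larger and 19 smaller in LX-2, and 16 of the 19 were kept in direction. DNAJB9, DNAJC10 and CANX then changed sign to -1.93, -0.51 and -1.13, while HSPA5 kept a difference of at least 0.86 and PPIB of at least 0.99 in every fit with a library left out.

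**Figure D4:**
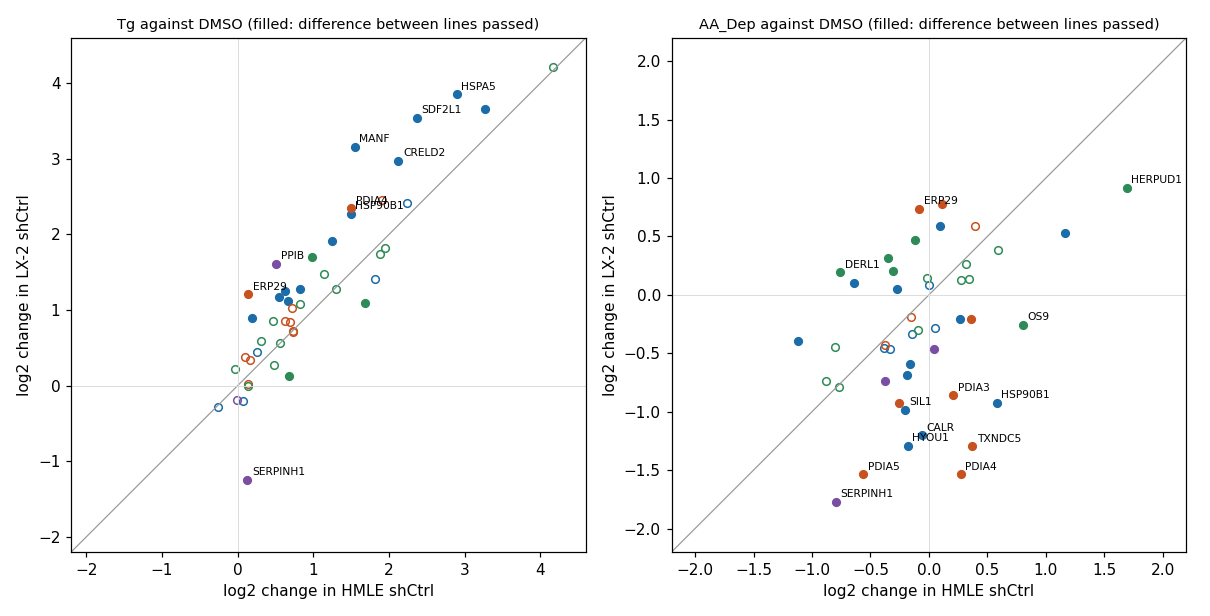
Log2 changes in LX-2 shCtrl (vertical) against HMLE shCtrl (horizontal) for thapsigargin (left) and AA_Dep (right), each from the fit of its own line, 46 genes coloured by role (blue chaperones, orange isomerases, purple collagen folding, green ERAD) with a line of equality. Filled points passed the test of the difference between lines; names mark the larger of these, such as SERPINH1 below the line (-1.39) and MANF above it (1.60) on the left.

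AA_Dep did not raise the group as a whole: more of the 47 genes fell than rose in every line and hairpin. In HMLE shCtrl 14 of 46 rose and 20 fell (median -0.11), against 29.1% of all genes higher and 32.6% lower. In HMLE shATF4, with 1 library, 10 rose and 21 fell (-0.12; 25.7% and 28.4%). In LX-2 shCtrl 7 of 47 rose and 23 fell (-0.30; 22.8% and 22.7%), and in LX-2 shATF4 5 rose and 22 fell (-0.23; 20.3% and 22.1%). With all 16 LX-2 libraries the counts were 1 and 10 in shCtrl (all genes 6.09% and 6.95%) and 0 and 9 in shATF4 (3.77% and 4.75%, 8.52% in either direction). HSPA5, HYOU1, DNAJC10, UGGT1, PDIA5, PDIA6, SERPINH1 and VCP fell in all 4 comparisons, 8 of 46 against 6.83% of the 16173 genes tested in all.

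HSPA5 stood at 448 and 467 CPM with AA_Dep in LX-2 shCtrl, against 733 and 749 in DMSO, and fell by 0.69 on the log2 scale (SE 0.06, adjusted p = 8.5e-08). In HMLE shCtrl it was 1128 and 1245 against 1315 and 1320.3, a fall by 0.19, and in HMLE shATF4 702 against 1308 and 1231, a fall by 0.83. The groups did not overlap in any of these. HERPUD1 went the other way in shCtrl cells, from 54.0 and 58.1 to 179 and 192 CPM in HMLE (1.69, SE 0.06, adjusted p = 2.1e-14) and from 26.7 and 27 to 48.1 and 52.8 in LX-2 (0.92). With shATF4 HERPUD1 was at 60.8 in HMLE AA_Dep, a rise of 0.19 that passed, and at 27.7 and 26.0 in LX-2 AA_Dep, where a change of 0.16 did not. DNAJB9 rose by 1.16 in HMLE shCtrl and 0.53 in LX-2 shCtrl.

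Of the 11 isomerases 2 rose and 6 fell in LX-2 shCtrl (median -0.43), and 5 rose and 3 fell in HMLE shCtrl (0.12). PDIA4 went from 336 and 365 to 118 and 123 CPM in LX-2 shCtrl, a fall by 1.53 (SE 0.07, adjusted p = 1.1e-10), and from 324 and 330.3 to 397 and 413 in HMLE shCtrl, a rise of 0.27. HSP90B1 likewise fell by 0.92 in LX-2 shCtrl and rose by 0.58 in HMLE shCtrl. The difference between the lines in the AA_Dep response was -1.83 for PDIA4 (SE 0.09, adjusted p = 6.2e-15) and -1.53 for HSP90B1. Across the group 10 genes had a larger value in LX-2 and 19 a smaller one, against 21.0% and 19.3% of all genes, and 1 and 10 with the discordant library in the fit (6.7% and 7.76%). ERP29, DERL1, ERO1A and SELENOS were among the 10, and DERL1 fell by 0.76 in HMLE shCtrl. SERPINH1 went from 394 and 445 to 138 and 107 CPM in LX-2 shCtrl and from 166 and 167 to 96.0 and 101 in HMLE shCtrl, a fall in both lines. VCP fell by 0.74 in LX-2 shCtrl and 0.88 in HMLE shCtrl.

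Stellate markers moved with AA_Dep as they did with thapsigargin, 8 of 10 lower in LX-2 shCtrl, with a sum of 3320.1 and 3468 CPM. Their part in the results was not tested. Regulators of the unfolded protein response were counted too: 12 of 16 rose and 3 fell in HMLE shCtrl (median 0.98), and 8 rose and 3 fell in LX-2 shCtrl (0.64). CHAC1, a known target of ATF4, rose by 3.90 in HMLE and 4.05 in LX-2. Of the other ER folding genes 15 of 24 fell in HMLE shCtrl, and in LX-2 shCtrl 13 of 25 fell and 5 rose. Of all genes 29.1% rose and 32.6% fell in HMLE shCtrl, and 22.8% rose and 22.7% fell in LX-2 shCtrl.

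TGFbeta raised part of the group modestly in LX-2. In shCtrl cells 23 of 47 genes rose and 1 fell (median 0.32), against 11.1% of all genes higher and 11% lower, and in shATF4 cells 26 rose and 3 fell (0.33; 13.5% and 14.1%). With all 16 LX-2 libraries 1 rose and 0 fell with either hairpin, against 1.52% and 1.63% of all genes in shCtrl (3.15% in either direction) and 1.26% and 1.16% in shATF4 (2.42%). Among fits with a library left out, the shCtrl count was 13 without TGFbeta replicate 1 and 15 without DMSO replicate 2, and the shATF4 count was 17 and 19 without DMSO replicate 1 or 2 and 18 without TGFbeta replicate 2. HERPUD1 went from 26.7 and 27 to 52.7 and 56.1 CPM in shCtrl cells (1.05, SE 0.09, adjusted p = 2.6e-07), and HSPA5 from 733 and 749 to 1118 and 1104 (0.61, SE 0.06, adjusted p = 7.1e-07). Both were higher in 2 of 2 libraries than in both DMSO libraries. Chaperones that passed in shCtrl cells included DNAJC3, DNAJC10, CANX and HSP90B1, at 0.48 to 0.56. SERPINH1 rose by 0.44 and FKBP10 by 0.32, the former from 394 and 445 to 563 and 550.2 CPM. ERP29 was the gene that fell, by 0.56 in shCtrl and 0.68 in shATF4 cells. SDF2L1, MANF and CRELD2, which rose strongly with thapsigargin, had log2 changes of -0.39, 0.22 and -0.12 that did not pass in shCtrl cells. The sum of stellate markers rose to 23304 and 23375 CPM in the same libraries. The sum of the basal epithelial list, most of it KRT18 in LX-2, rose from 347 and 403 to 891 and 947. The part of both in the results was not tested.

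With Twist_OE in HMLE shCtrl cells the class median was 1.10 for collagen folding proteins, 0.24 for chaperones, 0.28 for isomerases and 0.23 for ERAD genes. In shCtrl cells 28 of 46 genes rose and 7 fell (median 0.26), against 28.3% of all genes higher and 28.9% lower, and in shATF4 cells 23 rose and 2 fell (0.16; 18.2% and 17.2%). SERPINH1 went from 166 and 167 to 586 and 565 CPM in shCtrl cells, a rise of 1.83 (SE 0.05, adjusted p = 1.1e-16), and from 158 and 153 to 322 and 318 in shATF4 cells, a rise of 1.09. FKBP10 went from 179.8 and 192 to 382 and 392 in shCtrl cells, a rise of 1.10, and rose by 0.53 in shATF4 cells. PPIB rose by 0.18 in shCtrl cells (adjusted p = 0.0072), from 192 and 196 to 217 and 211 CPM, and did not pass in shATF4 cells. ERO1B rose by 1.27 while ERO1A fell by 0.28, and DERL2 rose by 0.82 while DERL1 fell by 0.32. HSPA5 went from 1315 and 1320.3 to 1673 and 1589 CPM, a rise of 0.35. These groups did not overlap for SERPINH1, FKBP10 or HSPA5.

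The cells differed in other ways between these groups. TWIST1 was at 126 and 139.8 CPM in shCtrl Twist_OE but at 31.1 and 32.2 in shATF4 Twist_OE, against 17.8 and 17.3 in shCtrl DMSO. The 10 epithelial markers summed to 853 and 815 CPM in shCtrl Twist_OE and to 6668 and 6398 in shATF4 Twist_OE, and the 10 stellate and mesenchymal markers to 5084 and 4837 against 1257 and 1339.5. KRT5 was at 239.9 and 237 in shCtrl Twist_OE and at 2706 and 2698 in shATF4 Twist_OE. Differences between the hairpins in Twist_OE below carry this difference in TWIST1 and in markers, and its part was not tested.

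In DMSO few of the genes differed between hairpins. In HMLE 3 of 46 genes were higher and 5 lower with shATF4 (6.08% and 6.72% of all genes), and in LX-2 3 of 47 were higher and 5 lower (6.28% and 5.30%). With all 16 LX-2 libraries 0 passed by edgeR (0.242% of all genes), with 2 at an unadjusted p under 0.05. The HMLE count was 5 by DESeq2, 5 without shATF4 DMSO replicate 1 or shCtrl DMSO replicate 2, and 2 without either of the other DMSO libraries. The LX-2 count was 3 without shATF4 DMSO replicate 1, and 1 without shATF4 or shCtrl DMSO replicate 2. HSPA5 had a log2 difference of -0.08 in HMLE and -0.00 in LX-2 that did not pass. P4HB, the beta subunit of collagen prolyl hydroxylase and itself a disulfide isomerase, was the main exception in HMLE, at 369.7 and 371 CPM with shCtrl and 569 and 549.7 with shATF4 (0.57, SE 0.04, adjusted p = 3.8e-08). DNAJB9 was the main one in LX-2, at 11.4 and 12.8 with shCtrl and 20.6 and 21.7 with shATF4 (0.83, SE 0.11, adjusted p = 0.00012).

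Under thapsigargin HSPA5 and HERPUD1 were lower with shATF4 in both lines. In LX-2 0 of 47 genes were higher and 10 lower (median -0.27), against 3.11% and 2.09% of all genes (5.2% in either direction). With 16 libraries 1 was lower, HSPA5 (adjusted p = 0.028), against 0.0957% of all genes. With the discordant library in place of its replicate 42 passed, 19 higher and 23 lower, and 7 of the 10 were kept in direction; without shATF4 Tg replicate 2 the count was 5. In HMLE 5 were higher and 12 lower (-0.06; 12.3% and 11.9%). HSPA5 was lower with shATF4: it fell by 0.83 in LX-2 (SE 0.07, adjusted p = 2.5e-06), from 10691 to 5762 and 6039 CPM, and by 0.38 in HMLE, from 9953 and 9416 to 7488 and 7383. HERPUD1 fell by 0.76 in LX-2 and by 0.78 in HMLE, where it was 967 and 1022 with shCtrl and 577 and 577 with shATF4. Neither gene overlapped between hairpins. In HMLE 8 of 15 ERAD genes were lower with shATF4, among them EDEM1, EDEM2, EDEM3, SEL1L, ERLEC1 and DERL1, while P4HB was higher by 0.38 and OS9 by 0.22. In LX-2 the 10 included the chaperones CRELD2, HYOU1, DNAJB11 and CALR, but HYOU1 was higher by 0.74 (adjusted p = 1.6e-06) with the discordant library in place of its replicate.

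The size of the thapsigargin response itself differed between hairpins for 4 of 47 genes in LX-2 and 4 of 46 in HMLE, all smaller with shATF4, against 2.46% and 2.40% of all genes. HSPA5, DNAJB9 and HERPUD1 were among the 4 in both lines. Under thapsigargin itself only HSPA5 and HERPUD1 of these were lower with shATF4 in both lines. DNAJB9 was also higher with shATF4 in LX-2 DMSO, which enters its difference in response. The difference in LX-2 was -0.83 for HSPA5 (SE 0.09, adjusted p = 2.9e-05), -1.04 for DNAJB9 and -0.60 for HERPUD1. In HMLE it was -0.30 for HSPA5 (SE 0.07, adjusted p = 0.012), -0.40 for DNAJB9 and -0.71 for HERPUD1 (SE 0.08, adjusted p = 1.4e-05). The fourth gene was SELENOK in LX-2 (-0.84) and EDEM1 in HMLE (-0.36). With the discordant library put back, 0 of 47 passed by edgeR (12 at an unadjusted p under 0.05): HSPA5 was at -0.98 (adjusted p = 0.13) and HERPUD1 at -0.93 (adjusted p = 0.24). With that library in place of its replicate 38 passed, 17 larger and 21 smaller, and 2 of the 4 were kept in direction. HSPA5 was then at -1.07 and HERPUD1 at -1.14, whereas DNAJB9 was at 1.15. HERPUD1 in HMLE passed in each of 8 fits with 1 library left out, HSPA5 in 6 and DNAJB9 in 2. HERPUD1 in LX-2 passed in 5 of 7 such fits, SELENOK in 1 of 7 and EDEM1 in HMLE in 1 of 8.

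The AA_Dep response of HERPUD1 was smaller with shATF4 in both lines, and in HMLE it differed the most of the genes that passed. In HMLE the difference was -1.5 (SE 0.09, adjusted p = 9.4e-09): HERPUD1 rose from 54.0 and 58.1 to 179 and 192 CPM with shCtrl and went from 55.9 and 52.4 to 60.8 with shATF4. In LX-2 it was -0.75 (SE 0.13, adjusted p = 0.0015), passed in each of 8 fits with a library left out, and was -0.75 with 16 libraries (adjusted p = 0.75). HSPA5 differed by -0.64 in HMLE (SE 0.08, adjusted p = 2.6e-05), and by -0.20 in LX-2, which did not pass. In HMLE 1 gene, P4HB, had a more positive log2 change with shATF4 and 4 a more negative one (2.99% and 2.10% of all genes). The other 2 of the 4 were DNAJB9 and EDEM1. HSPA5 fell with both hairpins, further with shATF4, while P4HB was lower than in DMSO with shCtrl only. HERPUD1 and HSPA5 passed in each of 6 HMLE fits with a library left out, DNAJB9 and EDEM1 in 0 of 6. The only HMLE shATF4 AA_Dep library was in all 6 of these fits, so they do not test its values. In LX-2 the difference was positive for 8 genes and negative for 5 (3.91% and 6.65%). PPIB at 1.02 and PDIA4 at 0.65 were among the 8. Both of these genes fell with AA_Dep in LX-2 shCtrl, so their positive values were a weaker or reversed fall. PDIA4 was also lower with shATF4 in LX-2 DMSO, which enters its difference in response. The LX-2 count reached 28 of 47 without shCtrl AA_Dep replicate 1 and was 5 to 12 in the other fits with 1 library left out. Under AA_Dep 3 genes were higher and 11 lower with shATF4 in HMLE (9.77% and 7.09% of all genes) and 5 higher and 3 lower in LX-2 (3.87% and 6.04%; with 16 libraries 0 passed by edgeR, 3 at an unadjusted p under 0.05). The HMLE count was 9 without shCtrl AA_Dep replicate 2, and the LX-2 count was 2 and 3 without shATF4 AA_Dep replicate 1 or 2 and 22 without shCtrl AA_Dep replicate 1. P4HB in HMLE AA_Dep was at 291 and 295 CPM with shCtrl and 579 with shATF4, higher by 1.02 (SE 0.05, adjusted p = 5.6e-11).

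No difference between hairpins in the TGFbeta response was detected for these genes. The edgeR test of the difference passed for 0 of 47, with 4 at an unadjusted p under 0.05 and 0 by DESeq2, against 0.987% of all genes. For HSPA5 the difference was 0.15 and for HERPUD1 -0.24. Levels in TGFbeta differed between hairpins for 12 genes, 5 higher and 7 lower with shATF4 (10.9% and 10.7% of all genes), and for 0 with 16 libraries (5 at an unadjusted p under 0.05; 1.29% of all genes). DNAJB9 was higher by 1.14, at 16.4 and 16.7 CPM with shCtrl and 37.8 and 34.7 with shATF4, and OS9, a lectin that delivers glycoproteins to SEL1L, was lower by 0.69.

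The Twist_OE response differed between hairpins for 17 of 46 genes, 4 larger and 13 smaller with shATF4, against 16.3% and 13.4% of all genes. SERPINH1 differed by -0.74 (SE 0.07, adjusted p = 4.3e-08), FKBP10 by -0.57, P4HB by -0.47 and ERO1B by -0.80. Within Twist_OE 6 genes were higher and 18 lower with shATF4 (23.3% and 23.9% of all genes), with all 3 collagen folding proteins among the lower. ERO1A was higher by 0.64, at 138 and 144 CPM with shCtrl and 214 and 232 with shATF4.

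**Figure D5:**
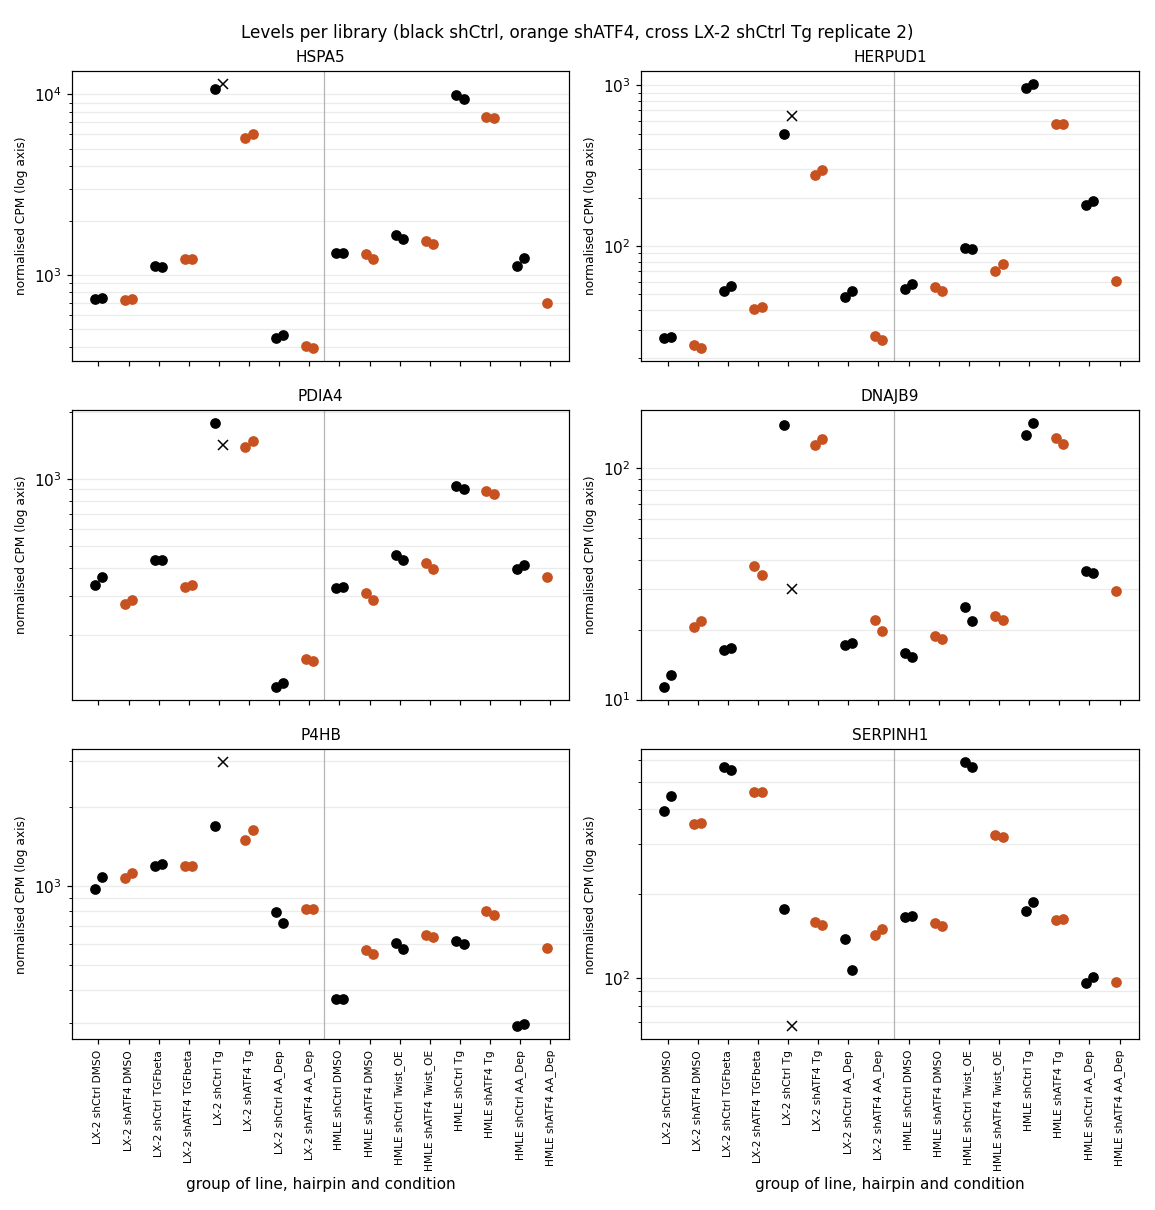
Normalised CPM on log axes for 6 genes in each of 31 libraries, by line, condition and hairpin (black shCtrl, orange shATF4); the cross is LX-2 shCtrl Tg replicate 2. HSPA5 and HERPUD1 are highest with thapsigargin and lower there with shATF4 in both lines, P4HB is higher with shATF4 in HMLE DMSO, Tg and AA_Dep (by 0.57, 0.38 and 1.02 on the log2 scale), and SERPINH1 is highest in HMLE with Twist_OE.

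Between the lines, DMSO shCtrl levels differed for 39 of the 47 genes, 12 higher and 27 lower in LX-2 than in HMLE, against 35.9% and 34.5% of all genes; with the discordant library in the fit 9 were higher and 15 lower (26.8% and 24.8%). P4HB was higher in LX-2 by 1.46 (SE 0.06, adjusted p = 1.6e-17), at 976 and 1087 CPM against 369.7 and 371. Of the collagen folding proteins SERPINH1 was higher by 1.32 and FKBP10 by 0.69, and PPIB was lower by 0.76. The derlins showed the widest contrast. DERL1 was at 44.8 and 45.6 CPM in LX-2 and 420.5 and 409 in HMLE (-3.21, SE 0.08, adjusted p = 3.2e-22), DERL2 was higher in LX-2 by 0.58, and DERL3 had 39 and 42 counts in the LX-2 libraries against 0 and 1 in HMLE. EDEM3 was lower in LX-2 by 2.06 and EDEM2 higher by 0.63. Of the 17 chaperones 12 were lower in LX-2, HSPA5 by 0.85 and MANF by 1.52.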

How the data were processed

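RNA was measured in 32 samples of 16 groups, 2 per group. The authors deposited whole-number read counts per Ensembl gene, 1 file per sample; per the labels, a SMARTer mRNA-Seq kit was used. The submitters' processing notes name cutadapt, Bowtie2, STAR, HOMER, featureCounts and DESeq and the builds hg19 and hg38, without versions, roles or strand setting. Reads of overlapping genes or near-identical copies could therefore have been assigned either way.

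Counts were tested with edgeR 4.0.16 (R 4.3.3) by the quasi-likelihood F test, with TMM normalisation, filterByExpr and all groups of a line in 1 fit. Benjamini-Hochberg adjustment ran over all genes tested, 18649 in LX-2, 17940 in HMLE and 20308 in the fit of both lines, with a threshold of 0.05, in 29 comparisons. Standard errors (SE) were the size of the log2 change divided by the root of its F statistic. The comparisons of condition with DMSO within a line and hairpin share their DMSO libraries. CPM were normalised over 31 libraries and are not scaled by gene length. Identical files were counted as 1 library, and the discordant library was left out of the main LX-2 values. Scripts were tested on simulated counts. Alternatives were DESeq2 1.42.0, its size factors, no count filter, a replicate block, all 16 LX-2 libraries and leaving out each library. The only HMLE shATF4 AA_Dep library was kept in every fit. For LX-2 shCtrl Tg the discordant library took the place of its replicate. The members and lists were chosen with earlier results of these data known. All 47 members could be named; values in every library were given for main members of each role and for called members with the largest changes, up to 4 per role and comparison, with up to 4 called and 2 other genes from each wider list.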

Additional observations from a re-analysis of the deposited data

Results flagged for a closer look

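Responses that differed between hairpins or between lines by a test of the difference itself (edgeR, Benjamini-Hochberg over all genes) are listed with their values on the log2 scale. The thapsigargin response differed between hairpins for 4 of 47 genes in LX-2 (6.13% of all genes), with HSPA5 at -0.83 and DNAJB9 at -1.04. With all 16 LX-2 libraries 0 passed by edgeR (12 at an unadjusted p under 0.05), against 0.27% of all genes. DNAJB9 was at 1.15 with the discordant library in place of its replicate. In HMLE the thapsigargin response differed for 4 of 46 genes (4.56% of all genes), with HERPUD1 at -0.71 and HSPA5 at -0.30. The AA_Dep response differed between hairpins for 13 of 47 genes in LX-2 (10.6% of all genes), with PPIB at 1.02 and PDIA4 at 0.65. With all 16 LX-2 libraries 0 passed by edgeR (4 at an unadjusted p under 0.05), against 0.0675% of all genes. In HMLE the AA_Dep response differed for 5 of 46 genes (5.09% of all genes), with HERPUD1 at -1.50 and HSPA5 at -0.64. The Twist_OE response in HMLE differed for 17 of 46 genes, against 29.7% of all genes, with SERPINH1 at -0.74 and P4HB at -0.47. Between the lines in shCtrl cells the thapsigargin response differed for 19 of 47 genes, against 27.7% of all genes, with SERPINH1 at -1.39 and HSPA5 at 0.95. With the discordant library in the fit 17 passed, against 21.6% of all genes. The AA_Dep response differed between the lines for 29 of 47 genes, against 40.3% of all genes, with PDIA4 at -1.83 and HSP90B1 at -1.53. With the discordant library in the fit 11 passed, against 14.5% of all genes.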

How the results depend on the processing

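Counts of the 47 genes that passed are compared here over the 29 comparisons. DESeq2 size factors kept 29 of 29 counts within 1.5 times. The replicate block did too; the replicate numbers share only a number, since deviations of same-numbered samples correlated at -0.32 to 0.27 in LX-2 and -0.057 to 0.19 in HMLE, and the count for the LX-2 AA_Dep response between hairpins was 10 with the block. Without a count filter 3 counts were higher by more than 1.5 times. They were 14 for LX-2 AA_Dep between hairpins, 8 for the LX-2 thapsigargin response between hairpins and 8 for the HMLE AA_Dep response between hairpins. DESeq2 gave 5 for HMLE DMSO between hairpins. With all 16 LX-2 libraries 13 of 16 counts were lower by more than 1.5 times. Against DMSO they were 1 for TGFbeta and 11 for AA_Dep in shCtrl, and 1 for TGFbeta, 19 for Tg and 9 for AA_Dep in shATF4. Between hairpins they were 0 in DMSO, 0 in TGFbeta, 1 in Tg and 0 in AA_Dep, and 0 for the Tg and AA_Dep responses. Between the lines they were 24 in DMSO and 11 for the AA_Dep response.

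Leaving out each library gave 2 to 22 for LX-2 AA_Dep between hairpins, 5 to 28 for its response, 1 to 8 in LX-2 DMSO, 5 to 42 in LX-2 Tg and 2 to 38 for the LX-2 Tg response. The ranges were 13 to 20 and 17 to 23 for LX-2 TGFbeta in shCtrl and shATF4, and 8 to 9 for TGFbeta between hairpins. In HMLE they were 2 to 5 in DMSO, 9 to 12 in AA_Dep, 1 to 4 for the Tg response and 3 to 3 for the AA_Dep response. Between the lines the range was 16 to 40 for the Tg response. The highest values for LX-2 Tg and the Tg response between lines came with the discordant library in place of its replicate.

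Signs that changed with all 16 libraries were ERO1A (-0.25) and EDEM3 (-0.0028) in LX-2 shCtrl Tg, and DNAJB9 (-0.36) and CANX (-0.035) in the Tg response between lines. Over fits with a library left out, the lower or opposite end of each range below came with the discordant library in place of its replicate. In LX-2 shCtrl Tg the ranges were CANX -0.44 to 1.22, PDIA6 -0.61 to 0.90, ERO1A -1.42 to 0.41, UGGT1 -0.062 to 0.65, SEL1L -0.53 to 1.99, EDEM1 -1.06 to 1.21, EDEM2 -0.025 to 0.69, EDEM3 -2.56 to 1.08, DERL3 -0.057 to 2.49 and UBE2J1 -0.30 to 1.14. Between hairpins in Tg they were HYOU1 -0.66 to 0.74 and TXNDC5 -1.14 to 0.84, and DNAJB9 -1.12 to 1.15 for the response. Between lines they were DNAJB9 -1.93 to 0.44, DNAJC10 -0.51 to 0.65 and CANX -1.13 to 0.64. The cause was not tested.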
